A study of Mus musculus with 2 samples.

Results

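The interiors of very long genes were examined for acetylation of histone H3 at lysine 27 (H3K27ac) in mouse leukaemia cells with and without Gata2. A peak was counted when it lay within a protein-coding gene of at least 200 kb on chromosomes 1 to 19 and over 2000 bp from any end of any protein-coding gene (gene models of GRCm38.p6, the build called mm10). This held for 3218 of 33556 peaks (9.59%) in the Gata2 f/f list and for 3490 of 36553 (9.55%) in the Gata2 KO list. They are called intragenic peaks of long genes here. Protein-coding genes of at least 200 kb on these chromosomes are called hosts, with or without such a peak. At the length limit, Plcxd3 (200095 bp) and Pcbp3 (200264 bp) were the shortest hosts admitted, with no peak and with 1 f/f peak of 773 bp. Atp9b (199941 bp, 1 f/f and 2 KO peaks) and Sergef (199738 bp, 8 peaks in each list) were just too short.

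H3K27ac was mapped by ChIP-seq, in which chromatin is pulled down with an antibody and sequenced, in 1 library per genotype. Both libraries came from MA9 cells, an acute myeloid leukaemia driven by the MLL-AF9 fusion, taken from the bone marrow of primary animals. Gata2 f/f cells carry floxed, intact alleles of Gata2 and Gata2 KO cells (Gata2 -/-) have lost them. Per the labels, cells received Cre or the control vector MIT and were sorted for GFP and tdTomato, and ChIP followed after 7 to 9 days in culture with IL-3, IL-6 and SCF. The study asks about the part of Gata2 in drug resistance of this leukaemia. Since each genotype has a single library, no difference below could be checked against replicates or tested, and each comparison describes these 2 libraries only. Read depth behind the peak lists is unknown.

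H3K27ac marks active promoters and active enhancers. Long genes carry most of their length in introns, and these introns hold enhancers of the host or of its neighbours as well as alternative promoters from which shorter transcripts start. Many genes of this length encode neuronal adhesion and synaptic proteins, while others encode blood transcription factors such as Runx1, Erg and Etv6. GATA2 is a zinc finger transcription factor of blood stem and progenitor cells that binds the short DNA word GATA in enhancers.

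The libraries also differed outside these genes. No peak lay on the Y chromosome in f/f and 4 did in KO, whereas 1 f/f peak and no KO peak lay over Xist, the RNA that silences an X chromosome in female cells. The genotypes are therefore not matched for this mark of sex, and with 1 library each this and the genotype cannot be told apart. At the starts of 6 chromosomes 1 list had no peak at all where the other had 256 in total. No intragenic peak of a long gene lay in them, and the only host that reached into one, Usp29, had no such peak. Of 12 blood marker genes, among them Ptprc, Spi1, Cebpa, Mpo, Hoxa9 and Meis1, 12 had a peak within 2000 bp of a gene end in each list. Of 10 markers of other tissues 4 did in f/f (Alb, Cdh1, Cdh5 and Sftpc) and 2 in KO (Alb and Sftpc).

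Some intragenic peaks lie over annotated starts of shorter transcripts, and the sequences before 4 of these starts and 1 start next to a peak are printed, since here the position of a peak can be set against a known feature. Each is the 250 bases before the start, 5′ to 3′ on the gene's strand (RefSeq, GRCm38.p6). Capitals mark the GATA-type words on either strand. These are AGATAA with its variant AGATAG, together with TGATAA and the variant of that word, TGATAG, and matches may share letters. Rsrc1 (an arginine/serine-rich splicing protein) held the intragenic peak of the highest fold enrichment in both lists, and the Runx1 start is the proximal promoter of this blood transcription factor. The Erg start lies 217 bp from the end of a broad f/f peak that no KO peak overlapped. The Phactr2 and Rap1gap2 starts lay under a peak in 1 list alone.
Rsrc1, peak in both lists, chr3:66985412-66985661, plus strand: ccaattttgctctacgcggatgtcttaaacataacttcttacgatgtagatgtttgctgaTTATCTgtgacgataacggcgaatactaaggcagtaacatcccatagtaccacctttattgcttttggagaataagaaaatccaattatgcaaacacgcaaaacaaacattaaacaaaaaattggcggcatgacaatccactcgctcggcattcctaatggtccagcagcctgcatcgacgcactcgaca
Runx1, peak in both lists, chr16:92697330-92697579, minus strand: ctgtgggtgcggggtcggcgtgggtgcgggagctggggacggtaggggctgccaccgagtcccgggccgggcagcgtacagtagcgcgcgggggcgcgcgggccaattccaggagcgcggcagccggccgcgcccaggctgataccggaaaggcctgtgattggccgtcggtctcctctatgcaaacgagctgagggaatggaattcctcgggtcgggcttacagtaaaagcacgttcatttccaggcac
Erg, next to an f/f peak, chr16:95459349-95459598, minus strand: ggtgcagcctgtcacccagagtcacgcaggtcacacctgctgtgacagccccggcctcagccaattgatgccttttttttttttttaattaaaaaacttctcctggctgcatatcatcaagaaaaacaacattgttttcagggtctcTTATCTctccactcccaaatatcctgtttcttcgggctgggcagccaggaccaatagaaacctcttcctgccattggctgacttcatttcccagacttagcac
Phactr2, peak in f/f alone, chr10:13324290-13324539, minus strand: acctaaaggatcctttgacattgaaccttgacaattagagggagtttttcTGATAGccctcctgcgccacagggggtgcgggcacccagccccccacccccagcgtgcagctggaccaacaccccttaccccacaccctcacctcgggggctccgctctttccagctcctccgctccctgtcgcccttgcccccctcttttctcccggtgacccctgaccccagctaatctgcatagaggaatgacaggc
Rap1gap2, peak in KO alone, chr11:74522802-74523051, minus strand: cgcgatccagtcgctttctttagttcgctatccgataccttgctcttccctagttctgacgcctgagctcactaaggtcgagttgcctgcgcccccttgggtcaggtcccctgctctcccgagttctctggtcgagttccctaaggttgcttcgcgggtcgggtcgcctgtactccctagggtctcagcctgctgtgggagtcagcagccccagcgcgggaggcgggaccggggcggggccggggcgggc
The word occurred once in the Rsrc1, Erg and Phactr2 windows and not in those of Runx1 and Rap1gap2. The windows also differ in composition: the Runx1 window has 67.6% G or C and 27 CpG dinucleotides, and the Erg window 47.2% and 3. Of all 32851 promoter windows of this length in the table, 26.5% held a GATA-type word. A match is a description of these letters and not evidence of binding.

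Intragenic peaks of long genes were slightly more numerous in KO and together covered about as many bases. The KO list had 1.08 times the number of the f/f list, against 1.15 times for the intragenic peaks of shorter genes (11397 and 9921) and 1.09 times for all peaks. The bases covered summed to 4.11 Mb (f/f) and 4.20 Mb (KO), 1.02 times as many, against 12.7 and 14.0 Mb (1.10 times) in shorter genes. The KO peaks were narrower, with a mean width of 1204 bp against 1276 bp in f/f. Where exactly 1 peak of each list overlapped the other (2415 pairs in long genes), the median KO width was 0.974 times the f/f width, and 45.6% of pairs were wider in KO. In 7848 such pairs of shorter genes the ratio was 0.998, with 49.6% wider in KO. In long genes 179 pairs (7.41%) were at least 2-fold wider in f/f and 125 (5.18%) in KO. In shorter genes the order was the other way, with 402 (5.12%) and 493 (6.28%). Pairs between genes had the order of long genes, with 417 and 370, a ratio of 0.986 and 47.1% wider in KO. Pairs near gene ends had 201 and 219, a ratio of 0.993 and 46.9% wider in KO. Over all pairs the ratio was 0.992, with 47.6% wider in KO, so slightly narrower KO peaks were not particular to long genes.

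These ratios turn with the threshold set on the lists. With the same number of peaks taken from each list, the strongest by the authors' -log10 p, the KO over f/f ratio was 0.965 for number and 0.940 for covered bases. Peaks of at least 3-fold enrichment gave 0.813 and 0.754. The KO list was also the smaller in shorter genes at 3-fold enrichment, with 4265 intragenic peaks against 5313 in f/f. With equal lists shorter genes had 10009 KO and 9921 f/f peaks. Covered bases at these thresholds are not given here for shorter genes. The lists differ in strength: for intragenic peaks of long genes the f/f and KO medians of -log10 p were 7.82 and 6.42, and those of fold enrichment 3.12 and 2.85. These values are the authors' own and rank peaks only within a list. Both sets were weak for their list, where the median -log10 p over all peaks was 12.1 and 9.36. This was not particular to long genes. The f/f and KO medians were 8.24 and 6.57 for intragenic peaks of shorter genes and 8.98 and 7.50 for peaks between genes. Peaks near gene ends had 49.4 and 32.0. Only 5.28% of the f/f peaks and 6.53% of the KO peaks in long genes belonged to the strongest of 4 strength classes of their list, against 9.07% and 9.77% in shorter genes.

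Peaks became sparse as host genes became longer. The interiors of long genes held 0.815 f/f and 0.884 KO peaks per 100 kb, and those of shorter genes 1.94 and 2.23. Peaks covered 1.04% (f/f) and 1.06% (KO) of the long interiors and 2.49% and 2.73% of the shorter ones. Density went from 1.5 f/f and 1.67 KO peaks per 100 kb in genes of 200 to 300 kb to 0.956 and 1.03 at 300 to 500 kb and 0.479 and 0.514 at 500 to 1000 kb. In the 55 genes over 1000 kb it was 0.176 and 0.145, the only length class in which the f/f list had more peaks, 128 against 106. Of these 55 genes, 21 had no peak in either list. Pde4d, a cAMP phosphodiesterase gene of this class, alone held 31 of the f/f and 26 of the KO peaks, and without it the numbers were 97 and 80.

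**Figure D1:**
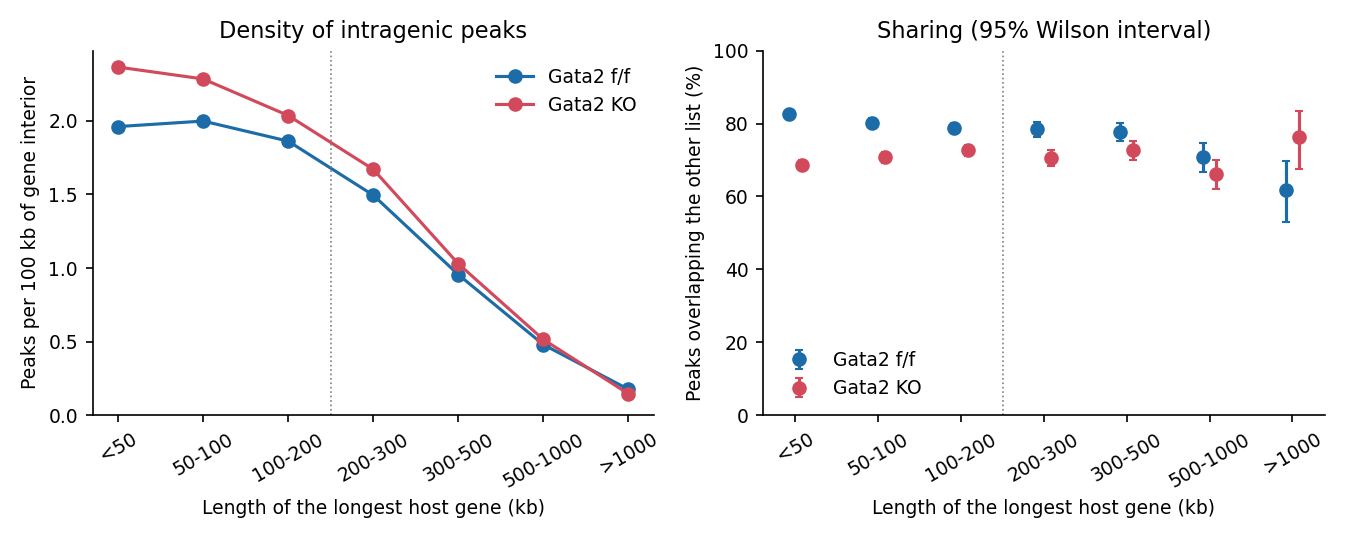
Left, peaks per 100 kb of gene interior by the length of the longest host gene, for the f/f and KO lists. Right, percent of each list's peaks that overlap a peak of the other list, with 95% Wilson intervals; the dotted line marks 200 kb. Density is lower in each longer class from 200 kb on, down to 0.176 (f/f) and 0.145 (KO) per 100 kb.

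Most intragenic peaks of long genes were found in both lists. A KO peak lay over 2456 of the f/f peaks by 1 bp or more (76.3%, 95% Wilson interval 74.8 to 77.8), and an f/f peak lay over 2473 of the KO peaks (70.9%, 69.3 to 72.3). The intervals cover counting error only. Thus 762 f/f peaks were without a KO overlap, 23.7%, where the share was 19.4% in shorter genes and 16.1% over all f/f peaks. In KO 1017 peaks were without an f/f overlap, 29.1%, against 29.4% in shorter genes and 22.7% over all KO peaks. The f/f share found in both lists was 4.24 percentage points lower in long than in shorter genes, and the KO share 0.236 points higher. The KO difference turned to -0.967 points with the same number of peaks per list, so that only the f/f difference kept its direction at the thresholds tried.

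Sharing followed peak strength closely. Each list was divided by -log10 p into 4 strength classes of equal size. The f/f share in long genes was 55.0% in class 1, the weakest, then 81.0%, 95.2% and, in class 4, 170 of 170 peaks (100%, lower limit 97.8). In shorter genes it was 60.6%, 83.8%, 96.8% and 99.4%. Class 1 is therefore where long and shorter genes were farthest apart in f/f. In KO the shares were 44.4%, 75.5%, 93.1% and 96.9% in long genes and 42.0%, 75.4%, 93.9% and 97.8% in shorter genes. Class 1 held similar shares of the peaks of long and shorter genes, 35.8% and 34.6% in f/f and 34.4% and 34.8% in KO. Of the peaks without an overlap, 40 of 762 in f/f (5.25%) and 71 of 1017 in KO (6.98%) reached the median strength of their list. The shares were similar in shorter genes, 87 of 1929 (4.51%) in f/f and 198 of 3348 (5.91%) in KO.

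**Figure D2:**
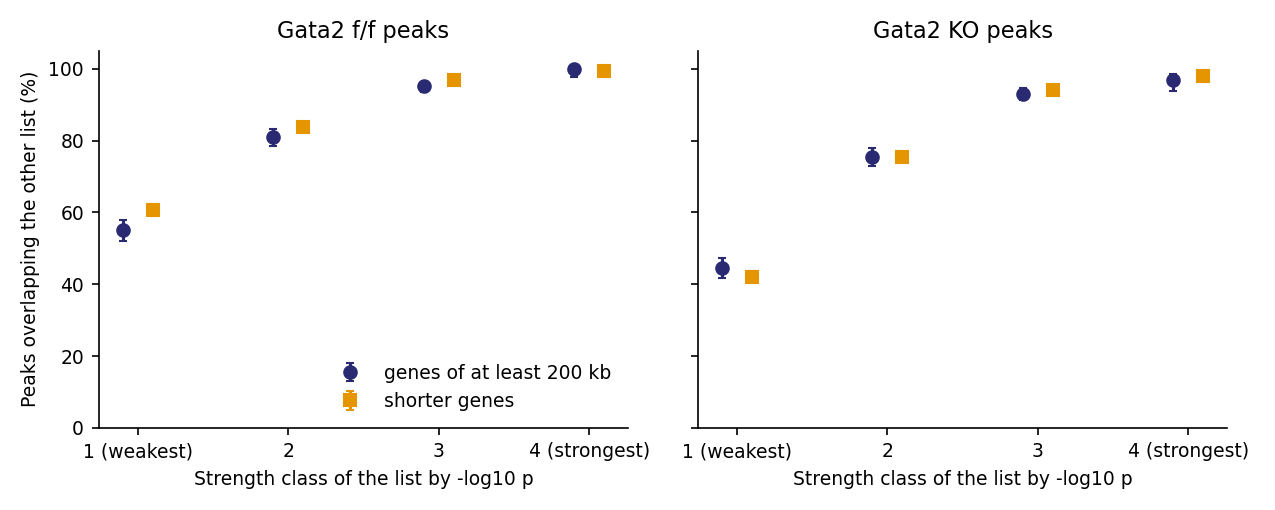
Percent of f/f peaks (left) and KO peaks (right) that overlap a peak of the other list, by strength class of the list's -log10 p (1 weakest, 4 strongest), for intragenic peaks of genes of at least 200 kb and of shorter genes. Bars are 95% Wilson intervals, and the share goes from 55.0% to 100% (f/f) and from 44.4% to 96.9% (KO) in long genes.

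By length of the host, sharing of f/f peaks was 78.4% at 200 to 300 kb, 77.7% at 300 to 500 kb, 70.8% at 500 to 1000 kb and 61.7% (53.1 to 69.7) over 1000 kb. KO peaks did not follow this order, with 70.7%, 72.7%, 66.2% and 76.4% (67.5 to 83.5). In the class over 1000 kb, leaving out Pde4d gave 56.7% (46.8 to 66.1) for f/f and 71.3% (60.5 to 80.0) for KO.

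The intragenic peaks of highest fold enrichment were in the same places in both lists. The f/f peak in Rsrc1 (chromosome 3, 66985471 to 66986446) had a fold of 8.61 and the KO peak there (66985504 to 66986406) 7.72. In Cntln, which encodes a centrosome protein, the f/f fold was 7.68 and the KO fold 7.22. Likewise the f/f peak in Fam172a (7.88) and the KO peak in Ccbe1 (6.68) also overlapped a peak of the other list. The widest f/f peaks lay in Akap13, a kinase-anchoring protein (6793 bp), in Erg (5839 bp) and in Spata13, a Rac exchange factor (5828 bp). In KO they lay in Baz2b, a bromodomain protein (7482 bp), in Cmip (6128 bp) and again in Spata13 (5863 bp). Wide peaks had low folds, between 1.69 for Baz2b and 1.96 for the f/f peak in Spata13, and all 6 overlapped a peak of the other list.

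Among peaks of 1 list alone, the highest fold in f/f was 6.97 in Dip2c (chromosome 13, 9494469 to 9495441), with the nearest KO peak 75.3 kb away. Next came Pam, an enzyme that amidates peptides (5.53), Gse1 (5.43), and Peak1, a pseudokinase (5.36). In KO peaks of this kind included those in Btbd11 (5.58), Dscam, a neuronal adhesion protein (5.52), Prkag2, a subunit of the energy sensor AMPK (5.11), and Psd3 (4.94). Of the peaks named here, the one in Prkag2 was nearest to a gene end, at 8.63 kb.

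Most annotated starts of shorter transcripts inside long genes lay under no intragenic peak, and those that did were mostly covered in both lists. The promoter table held 707 of the 945 hosts and 423 starts that lay inside one of 287 hosts and over 2000 bp from its ends. Intragenic peaks of both lists covered 64 of these starts, those of f/f alone 6, those of KO alone 7, and no intragenic peak 346. The peaks covered 1.04% (f/f) and 1.06% (KO) of the long interiors, a smaller share than that of the starts. Any start within 2000 bp of another gene's end counts among the 346, since no intragenic peak can lie there. The peaks at such starts were stronger than the others. In f/f, 66 peaks at a start had a median fold of 4.37 and a median -log10 p of 27.4, against 3.11 and 7.72 for the 3152 elsewhere, and 60 of them (90.9%, 81.6 to 95.8) overlapped a KO peak, against 76% elsewhere. In KO, 67 peaks at a start had a median fold of 3.89 and a -log10 p of 19.6, and 63 (94.0%, 85.6 to 97.7) overlapped an f/f peak, against 70.4% elsewhere.

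At the proximal Runx1 promoter, 129 kb inside the gene, the f/f peak spanned 92696826 to 92698930 on chromosome 16 (2105 bp, fold 4.01) and the KO peak 92696839 to 92698911 (2073 bp, fold 3.31). It began and ended at nearly the same positions in both lists. The start under f/f alone with the highest fold was that of Phactr2, a protein of the family that binds actin and phosphatase 1 (4.87, 895 bp), followed by Pde10a, a phosphodiesterase (4.14), and the others were in Ablim1, Abr, Ripor2 and Spata13. No KO peak overlapped any of these 6. Of the 7 starts under an intragenic KO peak alone, 3 (Fbxl17, Ptprr and Tcf12) had f/f peaks that overlapped the KO peak. No intragenic f/f peak of a long gene covered these 3 starts, and f/f peaks near gene ends were not counted there. At the other 4, Rap1gap2 (3.37, 980 bp), Marchf1, Pde7b and Ppp1r12b, no f/f peak overlapped the KO peak. The windows before the 64 starts under peaks of both lists had a median of 62% G or C and 15 CpG dinucleotides, and those before the 346 under no intragenic peak 49.6% and 5. A GATA-type word was in 21.9% of the 64 windows, in 23.1% of the 13 under 1 list and in 26.6% of the 346, beside 26.5% of all windows.

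Of 945 long genes, 664 held at least 1 intragenic peak in either list, 622 in f/f and 602 in KO. Both lists had peaks in 560, the f/f list alone in 62 and the KO list alone in 42. The same counts are not given here for shorter genes, so these cannot be called particular to long genes. Genes with peaks in 1 list alone had few of them: 41 of the 62 and 31 of the 42 had 1 peak, and none had more than 5. Hosts with peaks had a median of 4 in each list. The 10 hosts with the most peaks held 7.35% of f/f and 7.29% of KO peaks and the 50 with the most 25.0% and 26.1%, a peak in 2 hosts being counted for each. Hosts with a peak at their own ends usually had peaks inside as well (91.9% and 91.8% of them), and of the hosts without one, 48.9% and 47.0% did.

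The hosts with the most peaks include regulators of blood cells and of chromatin. Foxp1, a forkhead transcription factor of lymphoid and myeloid cells (chromosome 6, 98925342 to 99522746), held 31 f/f and 37 KO peaks that covered 48.4 and 47.2 kb. Arid1b, a subunit of the SWI/SNF remodelling complex, held 34 and 31 (40.8 and 36.1 kb). Etv6, an ETS family repressor needed by blood stem cells, held 19 and 25 (30.2 and 30.7 kb), and Runx2, a relative of Runx1, 21 in each (33.0 and 32.9 kb). In these 4 genes the KO over f/f ratio of covered bases lay between 0.884 (Arid1b) and 1.02 (Etv6). Gse1 held 21 and 24 peaks (34.1 and 37.8 kb) and Arhgap26, a GTPase-activating protein, 22 and 25 (27.5 and 35.8 kb). Runx1 itself (chromosome 16, 92601466 to 92826074) held 12 and 9 peaks and 18.0 and 16.6 kb.

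Counting over all 664 hosts with a peak, covered bases were higher in f/f in 343 genes and in KO in 320, with a median difference of -70 bp (KO minus f/f). A difference of at least 2-fold was counted in genes with at least 3 peaks in the lists together. Of 517 such long genes, 62 (12%) were 2-fold higher in f/f and 52 (10.1%) in KO. Over all 3235 protein-coding genes the shares were 8.84% and 11.3%, and over the 2718 genes under 200 kb 8.24% and 11.6%. The f/f share was thus 3.75 percentage points higher in long than in shorter genes, but with peaks of at least 3-fold enrichment it was 24.8% against 24.3%, 0.504 points. Large ratios came mostly from hosts with few peaks. Of 138 long genes with 3 to 5 peaks, 39 (28.3%) were 2-fold higher in f/f and 25 (18.1%) in KO. Of 157 with 6 to 11 peaks the order was the other way, 17 (10.8%) and 25 (15.9%), and of 222 with 12 or more peaks 6 (2.70%) and 2 (0.901%) were. In shorter genes with 3 to 5 peaks the shares were 11.5% and 16.3%, and with 6 to 11 peaks 33 and 43 of 825 genes were. Hosts with 3 to 5 peaks thus make up 39 of the 62 genes higher in f/f. At the hosts' own ends, 23 of the 62 had fewer covered bases in KO, 7 more and 32 no peak, against 179, 146 and 192 of all 517. The ends of the 52 hosts higher in KO did not follow their interiors: 16 had fewer covered bases in KO, 12 more and 24 no peak.

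**Figure D3:**
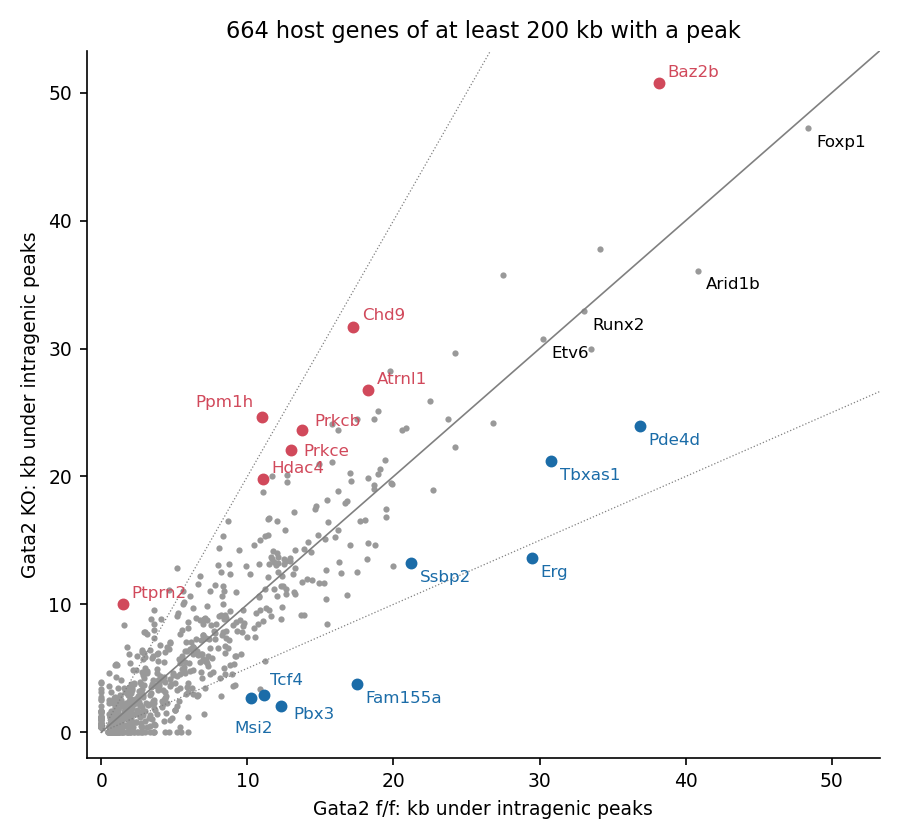
Kilobases under intragenic peaks per host gene in the f/f library (horizontal) and the KO library (vertical), for 664 genes. The solid line marks equality and the dotted lines 2-fold; blue and red are the 8 genes with the largest difference in each direction, such as Erg (29.5 and 13.6 kb) and Chd9 (17.3 and 31.7 kb).

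The largest difference in favour of f/f was in Erg, an ETS transcription factor of blood stem cells (chromosome 16, 95359169 to 95586600). Both lists had 12 peaks in it, but they covered 29.5 kb in f/f and 13.6 kb in KO. Wide f/f calls made the difference: peaks of 4923 and 5839 bp were met by KO calls of 604 bp and of 750 and 1830 bp. Another wide f/f peak (95453319 to 95459131, 5813 bp, fold 1.94, -log10 p 31.0) had no KO counterpart and ended next to the start whose upstream sequence is printed above. Peaks outside this stretch, such as the pair at 95401532 to 95404087 (2556 bp in f/f) and 95401505 to 95404162 (2658 bp in KO), were alike in width. Among peaks enriched at least 3-fold the difference was -0.064 kb, since the wide peaks have low folds.

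Pbx3, a homeodomain partner of HOXA9 and MEIS1, had 8 f/f peaks (12.3 kb) and 2 KO peaks (2.02 kb) inside the gene (chromosome 2, 34171457 to 34372045). The 6 f/f peaks without an overlap lay between 60.0 and 134 kb from its lower end, and the strongest, at 34249410 to 34252244, was 2835 bp wide with a fold of 2.97 and a -log10 p of 16.2. The peak at 34359352 to 34360658 was present in both lists with nearly the same edges, and at the gene's own ends peaks covered 2.26 and 2.25 kb. All 6 of the unshared peaks had folds under 3, and with peaks of at least 3-fold enrichment KO was higher by 0.716 kb. Msi2, an RNA-binding protein of blood stem and leukaemia cells (chromosome 11, 88339382 to 88718306), had 7 f/f peaks (10.3 kb) and 3 KO peaks (2.68 kb). Its 4 f/f peaks without an overlap all had folds above 3, from 3.41 to 4.21, and the shared peaks were wider in f/f, 1375 against 499 bp at the strongest. At the ends of Msi2 the values were 1.60 and 1.47 kb.

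Other hosts with more in f/f were Fam155a, which encodes a subunit of a sodium leak channel complex (14 and 3 peaks, 17.5 and 3.75 kb), Pde4d (31 and 26, 36.9 and 23.9 kb), and Tbxas1, thromboxane A synthase (16 and 14, 30.8 and 21.2 kb). Tcf4, a bHLH E protein, had 9 and 3 peaks (11.1 and 2.91 kb) and Ssbp2, a single-stranded DNA-binding protein, 12 and 11 (21.2 and 13.2 kb). In Fam155a and Tcf4, where the differences were -13.8 and -8.24 kb (KO minus f/f), f/f peaks without an overlap covered 13.1 and 8.07 kb. In Pde4d the difference lay more in the width of shared peaks (30.8 kb in f/f and 22.6 kb in KO). With only peaks enriched 3-fold or more the difference shrank to -3.41 kb in Fam155a and to -0.479 kb in Ssbp2, and at a -log10 q of at least 5 to -3.24 kb in Fam155a and -2.40 kb in Tbxas1. The ends of Fam155a had no peak in either list, and 8 of its 11 f/f peaks without an overlap were in strength class 1 of the list.

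In favour of KO the largest difference was in Chd9, a chromodomain helicase (chromosome 8, 90828302 to 91054516), with 11 f/f and 20 KO peaks that covered 17.3 and 31.7 kb. All 11 f/f peaks were met by 11 KO peaks, which covered 21.7 kb, and 9 KO peaks had no f/f overlap (9.98 kb). The difference of 14.4 kb fell to 1.20 kb once a -log10 q of 5 was required and to 0.113 kb once 3-fold enrichment was. Of the 9 KO peaks without an f/f overlap, 7 were in strength class 1 of the KO list, and 5 of the 20 KO peaks lay between 133 and 153 kb from the gene's lower end, where f/f had 1. Baz2b had 20 and 24 peaks and 38.2 and 50.7 kb, and there the difference was in shared peaks (37.0 and 47.8 kb): the widest KO peak of all long genes, 7482 bp, spanned f/f peaks of 1151 and 2884 bp. Ppm1h, a protein phosphatase, had 10 and 16 peaks (11 and 24.6 kb), a ratio of 2.23. Prkcb and Prkce, which encode protein kinases C, had 8 and 13 peaks (13.7 and 23.7 kb) and 10 and 16 peaks (13.0 and 22.1 kb), whereas Prkca, of the same family, had 7 in each list (8.51 and 7.92 kb). Hdac4, a histone deacetylase, had 10 and 14 (11.1 and 19.8 kb) and Atrnl1 16 and 17 (18.3 and 26.8 kb).

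The highest ratio among these 8 was 6.85 in Ptprn2, a receptor-type phosphatase of secretory granules, with 2 f/f and 9 KO peaks (1.46 and 10.0 kb). Its 7 KO peaks without an overlap were spread from 61.5 to 647 kb from the gene's lower end. With peaks of at least 3-fold enrichment Ppm1h (-1.74 kb, KO minus f/f), Baz2b (-3.49 kb), Prkcb (-1.22 kb) and Prkce (-0.221 kb) turned in favour of f/f, while Hdac4 (4.35 kb), Ptprn2 (2.67 kb), Atrnl1 (0.252 kb) and Chd9 did not.

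**Figure D4:**
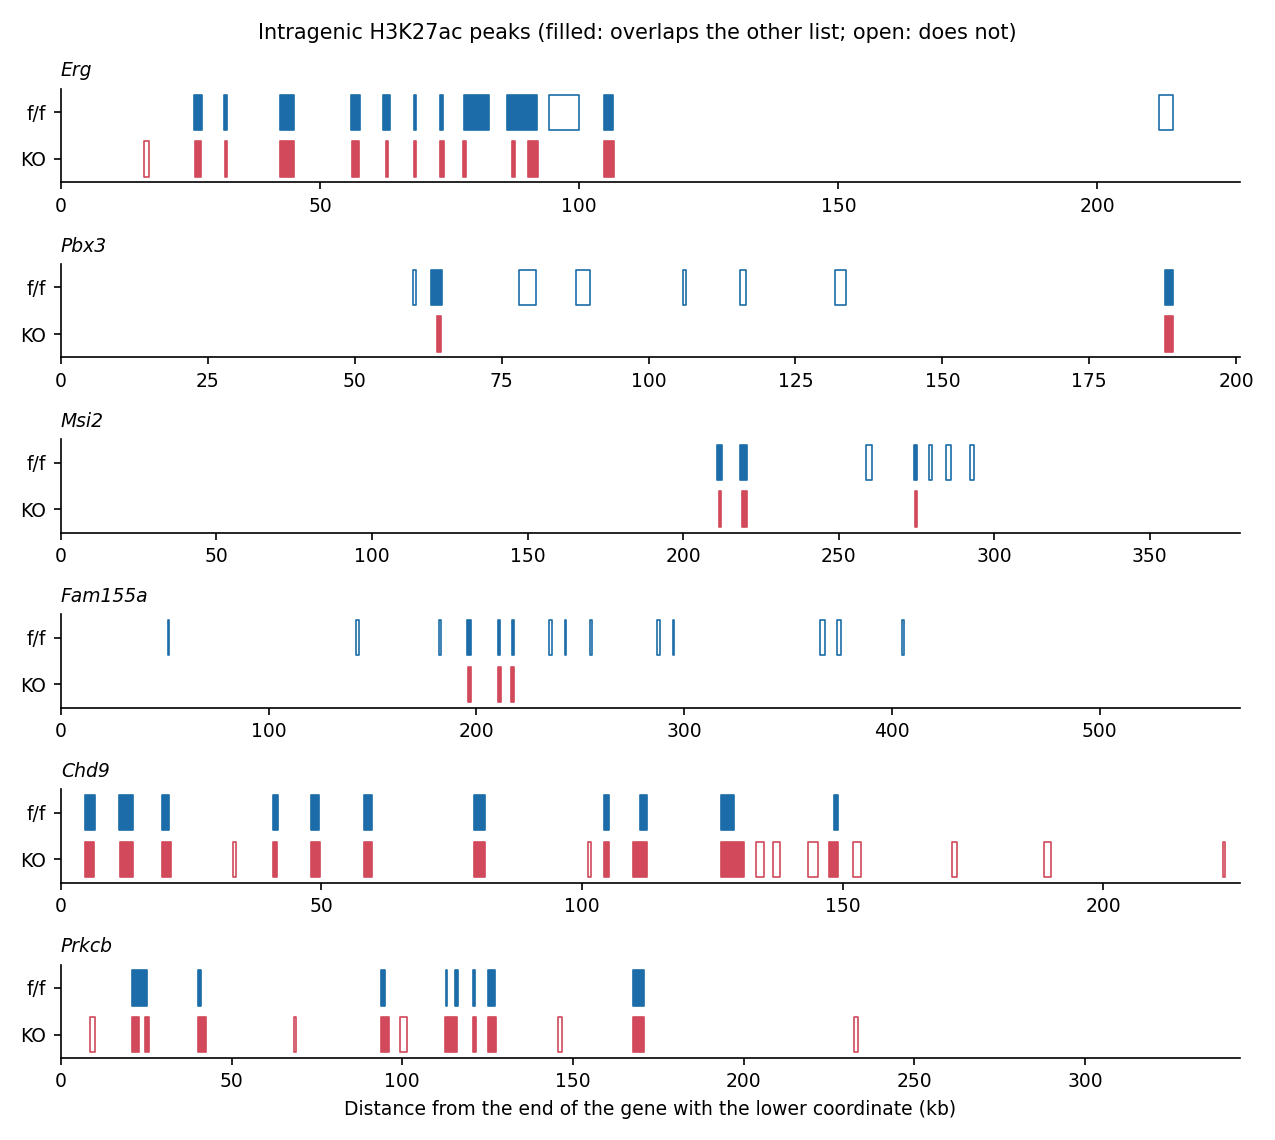
Positions and widths of intragenic peaks in Erg, Pbx3, Msi2, Fam155a, Chd9 and Prkcb, in kb from the gene end with the lower coordinate; f/f above, KO below. Filled boxes overlap a peak of the other list and open boxes do not: Pbx3 has 6 open f/f boxes and Chd9 9 open KO boxes.

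Among genes with peaks in f/f alone, Kcnq5, a potassium channel, had 5 (5.92 kb), Stxbp6, a SNARE-binding protein, 5 (5.47 kb), and Bbx, an HMG-box protein, 5 (4.67 kb). Angpt1, the ligand of the receptor TIE2, had 4 (5.15 kb) and also 2.21 kb of end peaks in f/f against none in KO. Ptprd, a receptor phosphatase, had 3 (4.35 kb). Among those with peaks in KO alone were Trp63, a relative of p53, with 3 (3.93 kb), Ephb1, an ephrin receptor, with 3 (3.41 kb), and Ccser1, Dpyd and Cpne4 with 2 each (3.83, 3.18 and 2.76 kb). With a -log10 q of at least 5, Ptprd, Ccser1 and Dpyd had no peak left in either list.

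Hosts were also grouped by function. Of 33 long genes listed as blood transcription factors and their cofactors, 27 held a peak. The list also holds factors not known mainly from blood, among them Esrrg, Foxp2 and Zfpm2. It had 1.75 f/f and 1.66 KO peaks per 100 kb of gene against 0.802 and 0.869 over all 945 hosts. Covered bases were higher in f/f in 17 and in KO in 10. The median difference was -958 bp, which is the value of Esrrg (1 f/f and 0 KO peaks), where all hosts with a peak gave -70 bp. The list's place against all hosts with a peak turned with the threshold. Of its genes with a peak 63.0% had more bases in f/f, beside 51.7% of all hosts with a peak. With peaks of at least 3-fold enrichment it was 57.7% beside 68.3%. Of 22 compared by ratio, 6 (27.3%) were at least 2-fold higher in f/f (Erg, Pbx3, Tcf4, Tcf12, Mecom and Zfpm2) and 1 (4.55%) in KO (Zbtb20), where all 517 hosts compared gave 12% and 10.1%. Mecom, which encodes the stem cell factor EVI1, had 7 and 3 peaks (8.19 and 2.87 kb) and end peaks of 1.67 kb in f/f and none in KO. Tcf12, an E protein, had 9 and 4 (11.2 and 5.55 kb), and Zfpm2, a cofactor of GATA proteins, 5 and 1 (4.69 and 0.929 kb). Zbtb20, a zinc finger repressor, had 1 and 5 (1.04 and 5.35 kb). Below a 2-fold ratio, Rora, a nuclear receptor, had 13 and 7 peaks (15.5 and 8.46 kb) and Maml3, a Notch coactivator, 13 and 17 (16.2 and 23.6 kb). The Maml3 difference of 7.47 kb was 2.12 kb when peaks were placed by their midpoints and 2.65 and 2.79 kb at the stricter q and fold. Long genes of this list without any intragenic peak included Mllt3, Nfib, Prdm16, Foxp2 and Klf12.

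In 74 long signalling genes 65 held a peak, 38 with more bases in f/f and 27 in KO, and the median difference was -582 bp. Of 59 compared by ratio, 9 (15.3%) were at least 2-fold higher in f/f, among them Ptprk and Arhgap15, and 6 (10.2%) in KO. These shares were near the 12% and 10.1% of all 517 hosts compared. Those higher in KO included Ptprm (1 and 7 peaks, 1.75 and 6.66 kb), Dock1 and Ptprn2. The 26 chromatin and RNA regulators, with 22 that held a peak, were even, with 11 higher in each list and a median difference of 32.5 bp. For vesicle traffic, adhesion and metabolism 30 of 32 genes held a peak, 20 with more bases in KO and 10 in f/f, with a median of 438 bp. There, 0 of 28 were 2-fold higher in f/f and 2 (7.14%) in KO (Fmn1 and Stx8), against 12% and 10.1% of all 517 hosts compared. This order did not hold at stricter thresholds. With peaks of at least 3-fold enrichment 65.5% of the genes with a peak had more bases in f/f, beside 68.3% of all hosts with a peak.

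Long genes for neuronal adhesion and synaptic proteins were the emptiest of the 6 lists, with 0.196 f/f and 0.193 KO peaks per 100 kb, and 54 of the 121 had no peak. Among the 67 with a peak, 42 had more bases in f/f, 24 in KO and 1 was equal, with a median of -459 bp. Of 42 compared by ratio 10 (23.8%) were at least 2-fold higher in f/f and 1 (2.38%), Dscam, in KO (3 and 5 peaks, 2.43 and 5.97 kb). Over all 517 hosts compared the shares were 12% and 10.1%. All of the 10 except Pcdh7 had 3 to 5 peaks in the lists together. Of all 138 long genes with 3 to 5 peaks, 28.3% were 2-fold higher in f/f and 18.1% in KO. Pcdh7, a protocadherin, had 6 and 1 peaks (7.01 and 1.41 kb), and Nrg3, a ligand of ERBB4, 4 and 1 (4.83 and 1.15 kb). In 7 of the 10 the ratio rests on 2 or 3 f/f peaks against 1 KO peak. Genes at common fragile sites, where chromosomes break under replication stress, were also sparse (0.290 and 0.250 per 100 kb). Of 22, 19 held a peak, with 10 higher in f/f and 9 in KO and a median of -252 bp. Wwox, an oxidoreductase at such a site, had 16 peaks in each list, and Fhit, a nucleotide hydrolase, 8 and 6. The lists share 10 genes among 298.

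**Figure D5:**
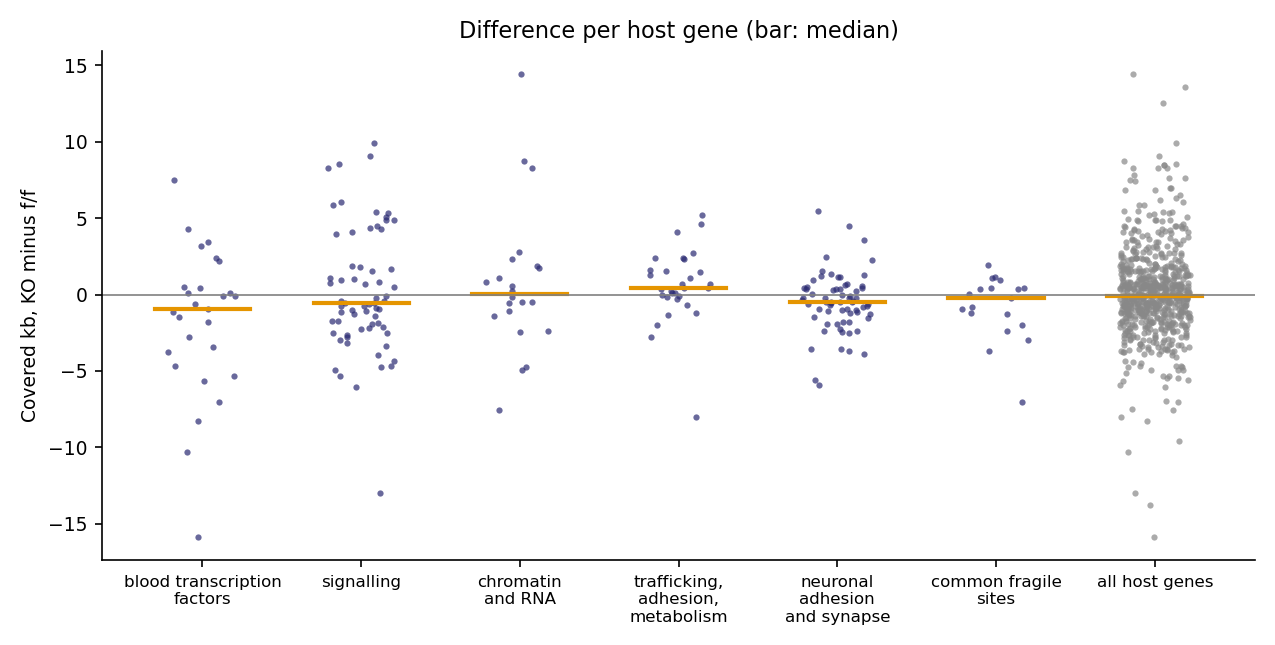
Difference in covered kb (KO minus f/f) for every host gene with a peak, by gene list and over all 664 hosts; each point is a gene and the bar is the median. Medians lie between -958 bp (the list of blood transcription factors) and 438 bp (trafficking, adhesion and metabolism), and the points of each list spread on both sides of 0.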

How the data were processed

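Peak lists of H3K27ac ChIP-seq were deposited by the authors, 1 per library (1 Gata2 f/f, 1 Gata2 KO). Reads were processed with BWA, SAMtools and MACS2 on mm10, per the submitters' processing notes; for versions, options, filters and a control the entry is: not given in the sources used here. Each deposited broadPeak line gives, as the authors' values, a score, a fold enrichment (ratio), a -log10 p and a -log10 q per peak. The deposited score is a multiple of the -log10 q and was not used. Ratio and -log10 values served only to rank, filter or describe peaks within a list. The lowest -log10 q was 1.01 in each list, and read depth is unknown, so that no depth limit could be given per peak.

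Peaks and gene models (RefSeq table, GRCm38.p6, the same build, 20665 protein-coding genes) on chromosomes 1 to 19 were joined in Python 3.11.15 with pandas 2.3.3. A peak was shared when it overlapped the other list by 1 bp or more, and a count of shared peaks with bedtools 2.31.1 was identical. Covered bases are summed widths. Shares carry 95% Wilson intervals (scipy 1.17.1), which cover counting error only. Overlap, distance and host assignment were tested on simulated data. A check of position along the gene was void, since the promoter table gave a strand for 74.8% of hosts. Promoter windows of 250 bases came from RefSeq and were searched on both strands for 4 hexamers.

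Hosts named were the 8 with the most peaks, per direction the 8 with the largest difference and up to 5 with peaks in 1 list, and per gene list the 3 with the most peaks and the largest difference each way. Peaks named were, per list, the 3 of highest fold, the 3 widest and the 5 of highest fold without overlap. Predicted genes were skipped, and a few hosts or peaks meeting these rules are not reported here. The 6 gene lists, the members and these rules were chosen with earlier results of these data known. Genes with printed sequences or inner starts, the list members named for a 2-fold ratio, those without a peak, the marker genes and Runx1 were chosen after their values were seen. Alternatives were at least 3-fold enrichment, a minimum -log10 q of 5, lists of equal size (33556 peaks), host lengths of 100 and 500 kb, 5 kb from gene ends, peak midpoints, overlap of at least 50% of a peak, and leaving out stretches blank in 1 list.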

Additional observations from a re-analysis of the deposited data

How the results depend on the processing

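No paired analysis was possible because each genotype has 1 library. The cause of the changes below was not tested, and read depth, which limits weak peaks, is unknown. The ratio of peak numbers (1.08) was 0.886 with a -log10 q of at least 5, 0.965 with equal lists, 0.813 with at least 3-fold enrichment and 1.02 in hosts of at least 500 kb. The ratio of covered bases (1.02) was 0.862 (2.63 and 2.27 Mb, mean widths 1470.5 and 1431 bp), 0.940 (4.11 and 3.86 Mb, 1276 and 1243 bp), 0.754 (2.28 and 1.72 Mb, 1265 and 1173 bp) and 0.934 (0.790 and 0.737 Mb, 1243 and 1134 bp). In the same order the shared f/f percentage (76.3) was 68.6, 72.5, 59.6 and 69.0, and the KO percentage (70.9) was 77.6, 75.6, 73.4 and 67.8. With at least 50% of a peak overlapped they were 68.6 and 65.3. The number of hosts compared by ratio changed with the setting. Hosts 2-fold higher in KO (52 of 517) were 24 of 381 at that q, 24 of 415 at 3-fold enrichment, 110 of 1281 from 100 kb and 12 of 109 from 500 kb. Hosts 2-fold higher in f/f (62 of 517) were, in the same order, 70 of 381, 103 of 415, 147 of 1281 and 25 of 109. Of 31 genes followed, 28 moved little with equal lists and 3 moved more, none changing direction. Equal lists drop KO peaks only, since 33556 is the full f/f list. Genes higher in f/f, or with peaks in KO alone, therefore could not change direction there. At 3-fold enrichment 9 moved little, 16 moved more and 6 changed direction, and at that q 10, 19 and 2. With peak midpoints 2 moved more and with 5 kb from gene ends 1. With at least 3-fold enrichment Pbx3 turned to 0.716 kb (KO minus f/f), Ppm1h to -1.74, Baz2b to -3.49, Prkcb to -1.22, Prkce to -0.221 and Chst11 to -2.89 kb, and at a -log10 q of at least 5 Prkcb turned to -0.612 and Chst11 to -0.972 kb. The following were added after seeing the data. The f/f share in long minus shorter genes (-4.24 points) was -2.0 at 3-fold enrichment, and the KO difference (0.236) was -1.82 at that q, -0.967 with equal lists and -3.39 at 3-fold enrichment. The share of genes 2-fold higher in f/f, long minus shorter (3.75 points), was 6.13 at that q, 2.71 with equal lists and 0.504 at 3-fold enrichment, and the KO difference (-1.53) was -1.59, -0.291 and -0.773. Among hosts with a peak, the percentage with more bases in f/f (51.7) was 62.8 at that q, 57.0 with equal lists and 68.3 at 3-fold enrichment. By list it was 73.3 at that q for fragile sites (52.6), 75 at that q and 80.6 at 3-fold enrichment for neuronal genes (62.7), 70.8 at 3-fold enrichment for signalling (58.5), 64.3 and 65.5 for trafficking, adhesion and metabolism (33.3), and 68 and 57.7 for blood transcription factors (63.0). The results added after seeing the data were run at these 3 thresholds only. For the others, 5 kb from gene ends and peak midpoints kept the direction. Leaving out blank stretches could change nothing, since no intragenic peak of a long gene lay in them.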

Other observations

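Most hairpins of microRNAs inside long hosts lay under no intragenic peak. Such peaks covered only 1.04% (f/f) and 1.06% (KO) of the long interiors, so this does not show depletion at hairpins. In Fndc3b, Gse1 and Zmiz1 the hairpins Mir3092, Mir7687 and Mir3075 each lay under 1 peak in f/f and 1 in KO. Every other hairpin matched inside a long host, among them those of the Mir23b, Mir27b and Mir24-1 cluster in Aopep and of Mir181a-2 and Mir181b-2 in Nr6a1, lay under no intragenic peak of either list.

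At least 3 f/f peaks without a KO overlap lay in 88 of the 622 hosts with an f/f peak, and at least 3 KO peaks without an f/f overlap in 147 of the 602 with a KO peak. Peaks without an overlap were also more frequent in KO over all peaks (22.7% against 16.1% in f/f) and in shorter genes (29.4% against 19.4%). This count of hosts is not given here for shorter genes. The hosts at least 2-fold higher in f/f had a median length of 398 kb and those higher in KO 298 kb, where all 517 compared had 319 kb.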
